A study of Homo sapiens with 15 samples.

Results

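The ATP-binding cassette (ABC) transporters that export drugs and their conjugates were followed in MDA-MB-231 cells, a triple-negative breast cancer line, after stable RNA interference against CtBP2 or after 24 h with either of 2 CtBP inhibitors, HIPP and P4. The set holds 9 genes, ABCC1, ABCC2, ABCC3, ABCC4, ABCC5, ABCC6, ABCC10, ABCB1 and ABCG2, which were found by the gene name or current symbol of their probes. They have 14 probes among the 41000 gene probes of the array, and are 9 of the 30992 gene names it carries. The genes were chosen by their log2 ratios of treated to control signal in these arrays, above all that of ABCC3, so that every ratio of the 9 genes is given as a description, without a test.

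ABC efflux pumps use ATP to move substrates out of the cell or into bile, urine and the gut lumen. The ABCC proteins, also called multidrug resistance-associated proteins, mainly carry organic anions and the glutathione, glucuronide and sulfate conjugates that detoxifying enzymes make, whereas ABCB1 (P-glycoprotein) and ABCG2 (breast cancer resistance protein) export many unmodified drugs. In tumours these pumps are best known for lowering the amount of a chemotherapeutic drug inside the cell. ABCC3 lies in the basolateral membrane of hepatocytes and enterocytes and returns bile salts and glucuronides to the blood, and ABCC2 lies in the opposite, apical membrane.

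Gene expression was measured on 15 two-colour Agilent arrays, 5 biological replicates each for shCtBP2, HIPP and P4 cells. The shCtBP2 cells carry a stable short hairpin RNA. HIPP and P4 share a phenylpropanoate skeleton with a hydroxyimino group in HIPP and a hydrazone in P4. Treated RNA was labelled with Cy5 and control RNA with Cy3 on every array, and the labels name untreated MDA-MB-231 cells as the control throughout, although the methods compare shCtBP2 cells with a scrambled hairpin. Dyes were never exchanged, so a dye effect of a probe cannot be told apart from the treatment. The doses put on the array cultures are not given in the sources used here, and the values for HIPP and P4 are therefore set side by side without being compared. RNA came from whole cultures, in which a change in every cell and one in some of the cells cannot be told apart.

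CTBP2, the target of the hairpin, had log2 ratios of −0.36, −0.35, −0.59, −0.44 and −0.29 in shCtBP2 replicates 1 to 5. Its mean of −0.41 ± 0.11 (SD, n = 5, limma adjusted p = 0.0595) left 75.4% of the control signal and passed neither threshold. Against scrambled cells, the paper reported a larger mRNA loss by real-time PCR and less protein by western blot. With HIPP CTBP2 averaged 0.57 ± 0.36 (limma adjusted p = 0.00256), above 0 on 5 of 5 arrays and under the fold threshold. With P4 it averaged 0.17 ± 0.35 (limma adjusted p = 0.344). VIM, CD44, FN1 and SPARC, typical of this mesenchymal line, were well above background in the control channel of 15 of 15 arrays, and PGR and CDH1 of 0 arrays. ESR1 was above background on 11 arrays, though never with all 3 of its probes, and ERBB2, EPCAM and KRT8 on 15. Per array, the control channel was well above background at 64.9 to 81.0% of gene spots and the treated channel at 65.2 to 77.5%. The arrays lay on 4 slides, and precision is set by having 5 arrays per treatment.

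ABCC3, ABCC2 and ABCC6 carried the clearest differences, and their probes show what was measured. The first 30 bases of 4 of these 60-base probes are given below in lower case, with positions on hg17, the build of the array's annotation. ABCC3 and ABCC2 lie on the plus strand and ABCC6 on the minus strand.
ABCC3 A_23_P207507, chr17:46123700-46123759: gtaactgtgctgaatgctttagatgaggaa
ABCC2 A_23_P158976, chr10:101601506-101601565: cccatgaacctactacccaggttaagaaaa
ABCC6 A_23_P366828, chr16:16152069-16152128: tgggccagaaacagctcctgtgtctggcac
ABCC6 A_23_P15272, chr16:16222576-16222635: gttcccccactggctgtattataggacaat
The ABCC6 probes lie 70447 bases apart, with A_23_P366828 at the 3′ side of ABCC6 and A_23_P15272 at its 5′ side. The whole 5′ probe of ABCC6 is 65.0% A and T and the 3′ probe 40%.

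ABCC3 was lower than control in shCtBP2 cells and higher with both inhibitors, on every array. Its log2 ratios in shCtBP2 replicates 1 to 5 were −0.81, −0.77, −0.98, −0.48 and −0.56. With HIPP they were 1.26, 1.37, 1.12, 2.09 and 0.79, and with P4 1.94, 1.47, 1.16, 1.8 and 1.63. The shCtBP2 arrays did not overlap with the arrays of either inhibitor, and HIPP replicate 4 was the highest and HIPP replicate 5 the lowest of the 10 inhibitor arrays. ABCC2, ABCC3 and ABCC6 had all shCtBP2 arrays on 1 side of 0 and all inhibitor arrays on the other, as did 2.25% of the 30866 genes measured on all arrays. The means were −0.72 ± 0.20 (60.7% of control), 1.33 ± 0.48 (2.51-fold) and 1.60 ± 0.30 (3.03-fold; SD, n = 5 each).

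The signals behind these ratios were well above background in both channels of all 15 arrays. In shCtBP2 cells the ABCC3 probe gave 187.6 to 267 in the treated channel and 354.6 to 456 in the control channel. With HIPP it gave 1285 to 2917 in the treated channel against 536.4 to 768.9 in the control channel, and with P4 1012 to 1992 against 425.1 to 609.1. Neither channel's range reached into the other's under any treatment, although signals are compared here only within an array.

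**Figure D1:**
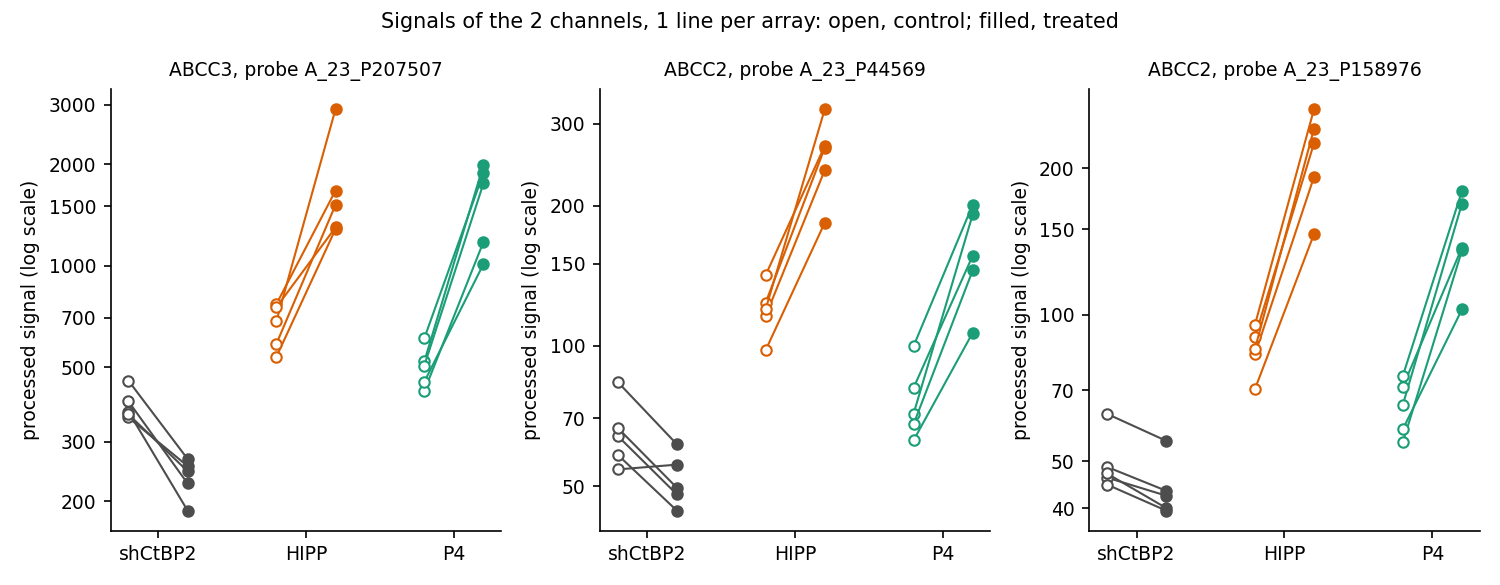
Feature Extraction processed signals (log scale, arbitrary units) of the ABCC3 probe and both ABCC2 probes, with 1 line per array from the control channel (open circle) to the treated channel (filled circle) for shCtBP2, HIPP and P4, 5 arrays each. Every ABCC3 line falls in shCtBP2 cells and climbs with HIPP and P4, and 1 of the 10 ABCC2 lines of shCtBP2 cells does not fall.

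ABCC3 had the same direction on each slide of a treatment. On slide 3, which held arrays of both shCtBP2 and HIPP, ABCC3 averaged −0.79 on 2 shCtBP2 arrays and 1.44 on 2 HIPP arrays. On slide 2 it averaged 1.25 on 3 HIPP arrays and 1.63 on the only P4 array, while slide 1, with P4 alone, gave 1.59 on 4 arrays and slide 4, with shCtBP2 alone, −0.67 on 3. In a fit with slide as a block the shCtBP2 mean was −0.87 and no longer counted as called by the thresholds used for all genes, and the means of 1.37 with HIPP and 1.74 with P4 were still called. The HIPP mean lay just past the study's 2.5-fold threshold for that treatment and fell under it without HIPP replicate 2 (1.32) or replicate 4 (1.13).

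ABCC2 was higher with both inhibitors, and its 2 probes gave nearly the same ratios. The gene averaged 1.20 ± 0.18 with HIPP (2.29-fold; range 0.98 to 1.45) and 1.10 ± 0.23 with P4 (2.14-fold; range 0.79 to 1.40; SD, n = 5). Probe A_23_P44569 averaged 1.08 ± 0.21 and 1.05 ± 0.24, and probe A_23_P158976 averaged 1.32 ± 0.18 and 1.14 ± 0.24. In shCtBP2 cells ABCC2 was at −0.04, −0.32, −0.30, −0.28 and −0.33 in replicates 1 to 5, with a mean of −0.25 ± 0.12 (83.9% of control). All 5 of those arrays were below 0 for the gene, but replicate 1 was close to 0 and probe A_23_P44569 read 0.04 there.

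The ABCC2 probes were dim, though well above background in both channels of all arrays. Their control signals ran from 44.8 to 141.9 and their treated signals from 39.6 to 322.6. With normexp correction of the background and loess normalization in place of the processed signals, ABCC2 averaged 0.51 with HIPP and 0.59 with P4, whereas ABCC3 averaged 1.03 and 1.46. The direction was the same under both procedures, and the size for ABCC2 was not.

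ABCC1, the broad exporter of glutathione conjugates first found in drug-resistant lung cancer cells, was lower in shCtBP2 cells on each array. Its ratios were −0.61, −0.94, −0.43, −0.48 and −0.53, with a mean of −0.60 ± 0.20 (66.1% of control). HIPP gave −0.69, −0.60, −0.53, 0.32 and −0.52 and a mean of −0.40 ± 0.41. P4 gave −0.40, −0.66, −0.15, 0.24 and −0.29 and a mean of −0.25 ± 0.33. Replicate 4 was above 0 with both inhibitors and the other 8 inhibitor arrays were below it. The single ABCC1 probe lies at chr16:16143525-16143584, 8484 bases from the 3′ probe of ABCC6, and the genes are transcribed toward each other.

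ABCC6, which is expressed mainly in liver and kidney and whose loss causes the mineralization disorder pseudoxanthoma elasticum, went opposite to ABCC3. Its mean ratio over both probes was 0.30 ± 0.18 for shCtBP2, −0.65 ± 0.16 for HIPP and −0.27 ± 0.19 for P4, with every array on 1 side of 0. That pattern came from the 5′ probe alone. Probe A_23_P15272 averaged 0.82 ± 0.26 for shCtBP2 (0.90, 0.90, 0.35, 0.95 and 0.99), −1.45 ± 0.15 for HIPP (−1.58, −1.33, −1.34, −1.36 and −1.65) and −0.66 ± 0.31 for P4 (−0.35, −1.06, −0.76, −0.79 and −0.36). Its shCtBP2 arrays overlapped with none of the inhibitor arrays.

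The 3′ probe of ABCC6 stayed near 0. A_23_P366828 averaged −0.23 ± 0.31, 0.15 ± 0.23 and 0.13 ± 0.13 in shCtBP2, HIPP and P4 cells, each with arrays on both sides of 0. It was dimmer, with signals of 13.9 to 60.8 in shCtBP2 cells, where the treated channel was well above background on 3 of 5 arrays. The array annotates the 5′ probe from a different cDNA entry than the 3′ probe. Pseudogenes copy the 5′ exons of ABCC6, and whether the 5′ probe also matches them was not tested.

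**Figure D2:**
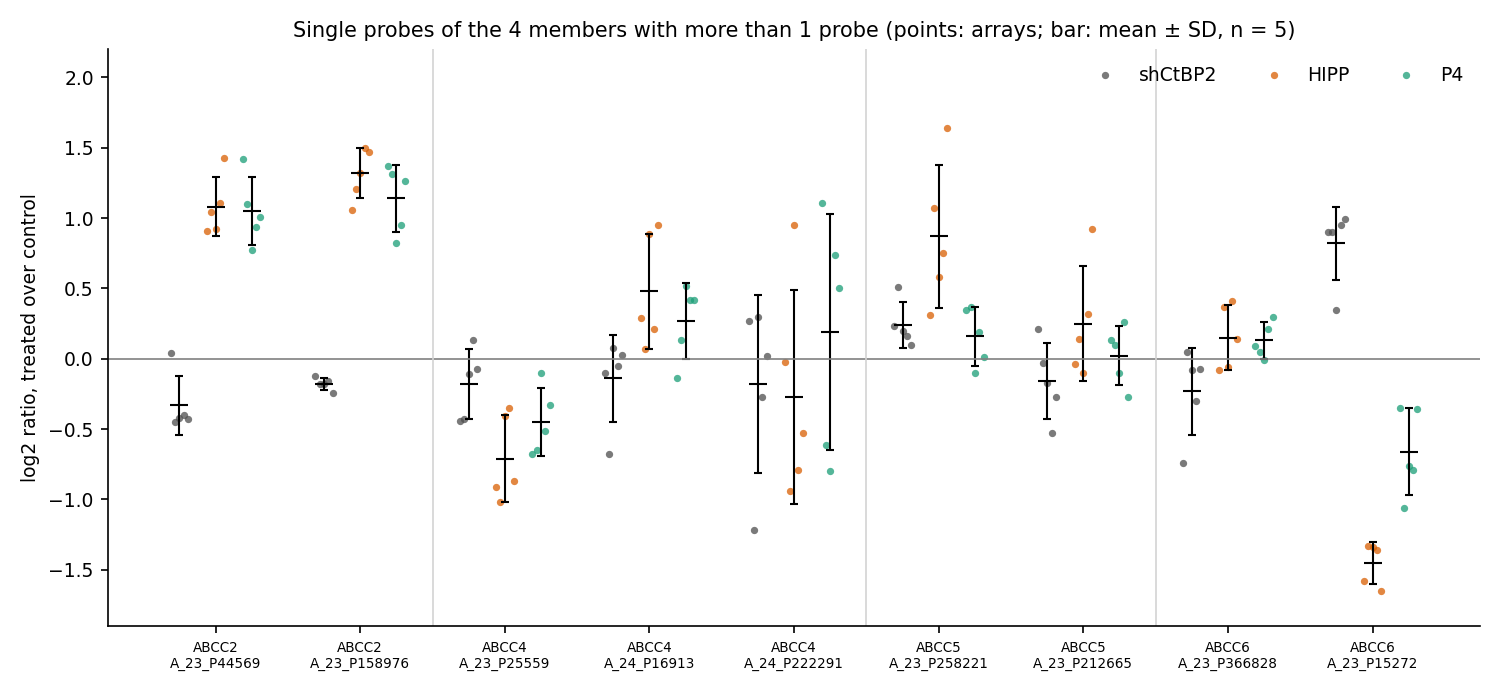
Log2 ratios of treated to control of the 9 probes of ABCC2, ABCC4, ABCC5 and ABCC6, 5 arrays per treatment (points, arrays; bars, mean ± SD). The ABCC2 probes agree within 0.23 of each other in each treatment's mean, whereas the ABCC6 probes lie on opposite sides of 0 under every treatment.

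The remaining ABCC pumps are ABCC4, ABCC5 and ABCC10. ABCC4, an exporter of cyclic nucleotides and prostaglandins, averaged −0.17 ± 0.35, −0.17 ± 0.40 and 0.00 ± 0.25 in shCtBP2, HIPP and P4 cells. Of its 3 probes, A_23_P25559 was lower on all inhibitor arrays (−0.71 ± 0.31 with HIPP and −0.45 ± 0.24 with P4), A_24_P16913 was higher with HIPP on 5 of 5 arrays (0.48 ± 0.41) and on 4 of 5 with P4 (0.27 ± 0.27), and A_24_P222291 was well above background on 0 arrays. The 60 bases of A_23_P25559 and of A_24_P16913 are spread over 9002 and 1846 bases of hg17. The ABCC4 probes had no common direction with the inhibitors, and in shCtBP2 cells their means were −0.18, −0.14 and −0.18.

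ABCC5, which also exports cyclic nucleotides, averaged 0.04 ± 0.19, 0.56 ± 0.45 and 0.09 ± 0.19. With HIPP its brighter probe, A_23_P258221, ranged from 0.31 to 1.64 (mean 0.87 ± 0.51) and its dimmer probe, A_23_P212665, from −0.10 to 0.92 (mean 0.25 ± 0.41). HIPP replicate 5 was the highest array with both probes. ABCC10, an exporter of taxanes and lipophilic anions, stayed close to control throughout, at 0.02 ± 0.20, −0.14 ± 0.11 and −0.07 ± 0.28.

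Neither classical drug pump showed a shared direction. ABCG2 averaged −0.10 ± 0.16 in shCtBP2 cells (−0.26 to 0.07), 0.26 ± 0.40 with HIPP (−0.18 to 0.67) and 0.33 ± 0.47 with P4 (−0.15 to 0.98), with arrays on both sides of 0 in each. Its signals were at least 917.7 on all arrays, well above background in both channels. ABCB1, spotted 10 times on each array, was well above background in neither channel of any array, with signals of at most 11.7, and no level or fold change can be given for it. Its ratios of −0.02, 0.20 and 0.25 lay near those of the 4770 genes that were above background on 0 of the 15 arrays, whose medians were 0.08, 0.36 and 0.35 in shCtBP2, HIPP and P4 cells.

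**Figure D3:**
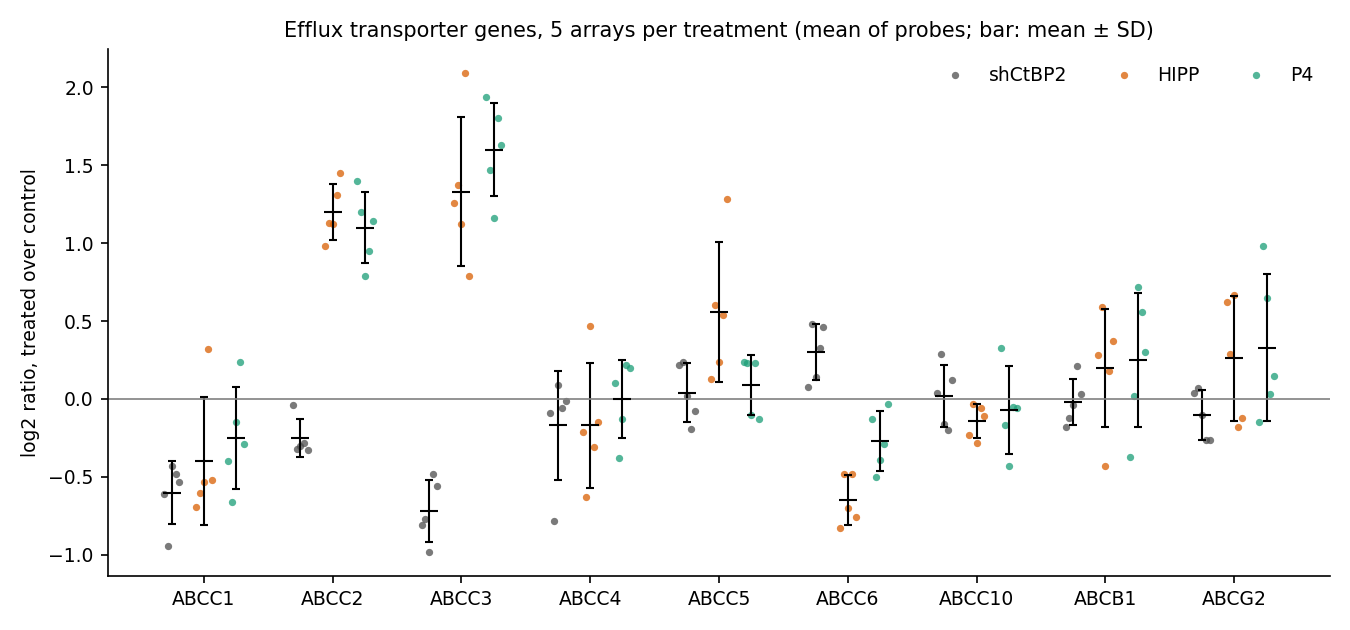
Log2 ratio of treated to control for the 9 efflux transporter genes (mean of each gene's probes), 5 arrays per treatment (points) with mean ± SD (bars). ABCC3 lies between −0.98 and −0.48 in shCtBP2 cells and between 0.79 and 2.09 with the inhibitors, and ABCC4, ABCB1 and ABCG2 have arrays on both sides of 0 under every treatment.

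Counted by the thresholds used for all genes (limma adjusted p under 0.05 and a fold change of at least 1.5 for shCtBP2, 2.5 for HIPP and 1.8 for P4), ABCC1 and ABCC3 were called lower in shCtBP2 cells, 2 of the 6 members tested there. Of all 27582 genes tested, 3.23% were called lower and 6.57% in either direction. ABCC5, ABCC10 and ABCG2 were left out by the filter on low variability. ABCC3 was called higher with HIPP, 1 of 8 members, against 3.43% of all genes called higher and 7.05% in either direction, with ABCC10 left out. ABCC2 and ABCC3 were called higher with P4, 2 of 9 members, against 4.29% of all genes called higher and 8.46% in either direction. ABCC2 with HIPP stayed under 2.5-fold. Nothing is read from these counts, since the same ratios chose the genes.

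Every call but that of ABCC3 with P4 depended on the processing. With normexp correction and loess, ABCC3 with P4 (1.46) was the only call left among the 9 genes, and ABCC3 in shCtBP2 cells came to −0.49 and ABCC1 to −0.32. The ABCC1 call also ended without shCtBP2 replicate 2 (−0.51).

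**Figure D4:**
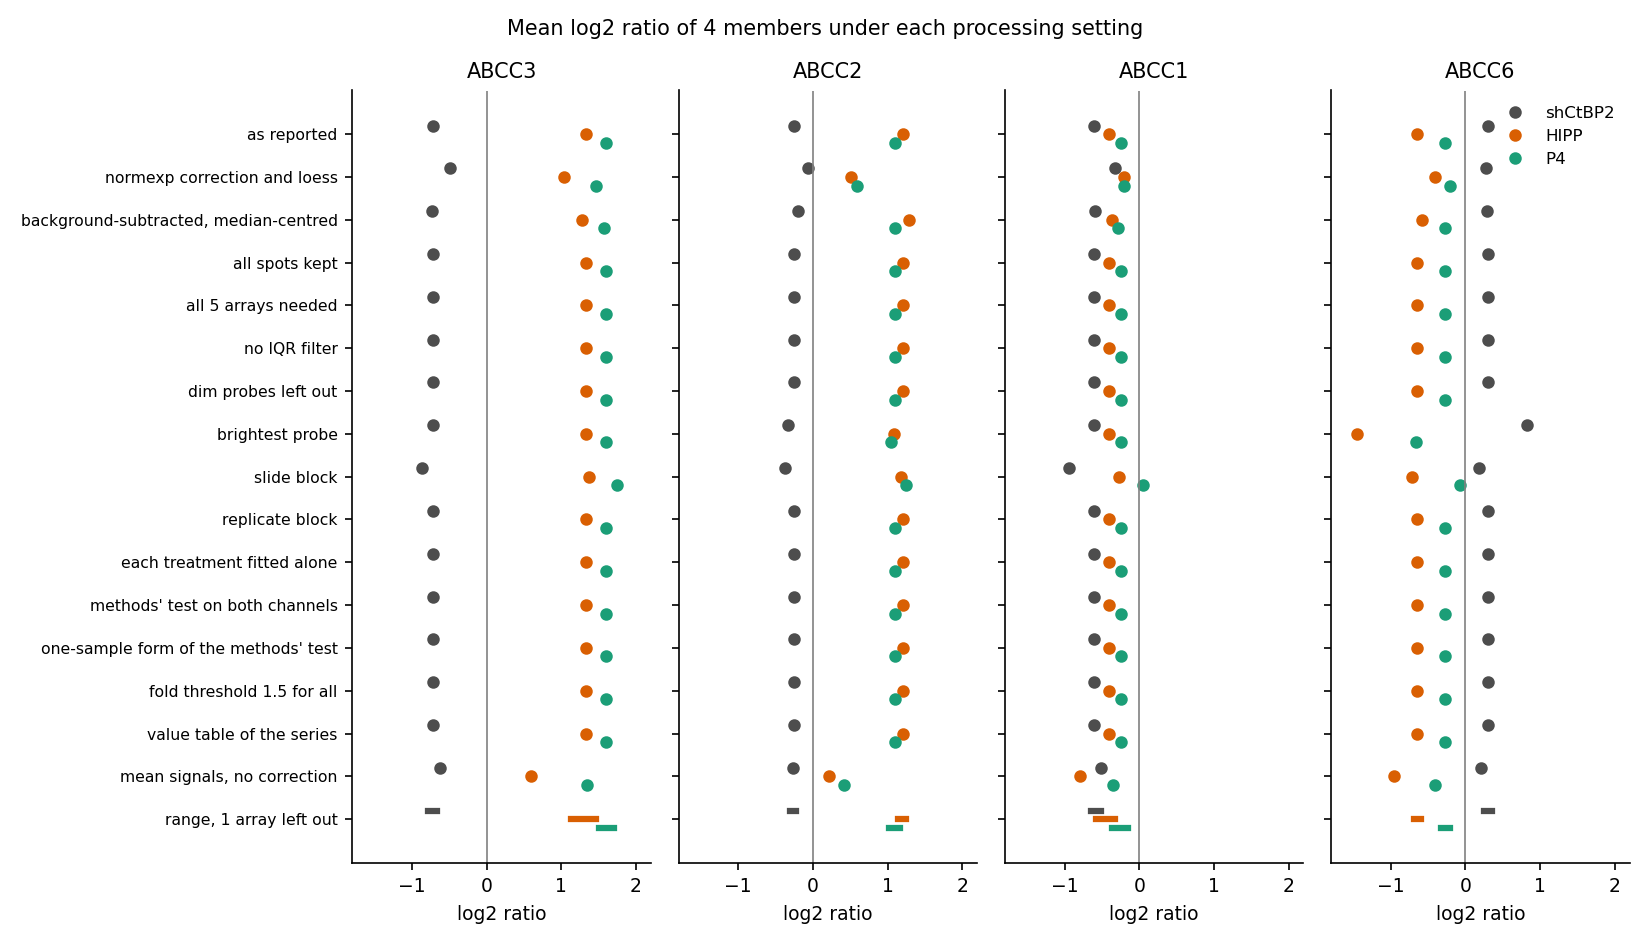
Mean log2 ratio of ABCC3, ABCC2, ABCC1 and ABCC6 in shCtBP2, HIPP and P4 cells under each processing setting (points), with the range over fits that leave out 1 array (bars). ABCC3 stays between −0.87 and −0.49 in shCtBP2 cells, between 0.60 and 1.46 with HIPP and between 1.34 and 1.74 with P4, so that its direction is the same in every setting.

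The rest of the ABC family was examined by subfamily. These 40 genes export lipids, peptides, bile salts or metals, gate ions, or, in the ABCE and ABCF groups, act on ribosomes without transporting anything. In shCtBP2 cells 2 of 36 tested were called (5.56%, against 6.57% of all genes), both lower, with a median log2 ratio of −0.02 against 0.04. With HIPP 3 of 37 were called (8.11%, against 7.05%), 1 higher and 2 lower, with a median of −0.16 against 0.08. With P4 4 of 33 were called (12.1%, against 8.46%), 1 higher and 3 lower, with a median of 0.18 against 0.11. No gene of the other ABCC, other ABCB, ABCD, or ABCE and ABCF groups was called in this fit, nor by the methods' test on both channels. Some were called in other limma fits: ABCD2, well above background on 0 arrays, was lower in shCtBP2 cells with slide or the replicate number as a block, in the deposited value table and without shCtBP2 replicate 3, and with slide as a block ABCD2 was higher and ABCD3 lower with P4. ABCD3 was also called lower with both inhibitors by its brightest probe and, like ABCF1, with HIPP on mean signals without correction. ABCC13, ABCC9 and ABCB11 were each called higher with P4 in at least 1 setting. At 1.5-fold for all treatments, HIPP called ABCC9, ABCC11, ABCB6 and ABCB11 higher and TAP2, ABCB10, ABCD3 and ABCF1 lower. There P4 called ABCC9 higher and ABCB9 and ABCD3 lower, beside 8976 (HIPP) and 4831 (P4) of all genes. Without adjustment, limma gave p under 0.05 with HIPP for 2 of 5, 6 of 10, 2 of 3 and 3 of 3 tested genes of these groups, in that order, against 56.7% of all genes. In shCtBP2 cells it did so for 0 of 6, 3 of 10, 1 of 3 and 2 of 2, against 28.6%, and with P4 for 3 of 5, 5 of 7, 3 of 4 and 0 of 1, against 44.8%. Of the 49 ABC genes, 13 were well above background on 0 arrays, among them CFTR, ABCC11, ABCC12, ABCB4, ABCB5 and ABCB11.

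In the fit described, the ABC genes called outside the 9 were ABCA or ABCG members. ABCA1, which loads cholesterol and phospholipid onto apolipoprotein A-I, was called lower with HIPP (mean of 3 probes −1.74 ± 0.21, limma adjusted p = 1.12e-07) and with P4 (−2.08 ± 0.32, limma adjusted p = 1.75e-07). Every array of both treatments was below 0, and shCtBP2 cells were at −0.11 ± 0.34 (limma adjusted p = 0.657). The inhibitor means include signals not above background, so that their size is not exact, and they were −0.57 and −0.72, no longer called, after normexp correction and loess. A_24_P235429 averaged −4.20 and −3.90 with HIPP and P4, its treated channel being well above background on 3 and 4 of 5 arrays. A_23_P216649 averaged −0.51 with HIPP, where 1 of 5 treated channels was above background, and was at least 1.16-fold lower with P4, where 0 were. A_24_P289265 was well above background on 0 of these 10 arrays.

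ABCG1, which passes cholesterol on to high-density lipoprotein, was called lower with both inhibitors. Its ratio was −1.77 ± 0.51 with HIPP (−1.53, −2.27, −1.0, −1.92 and −2.13; limma adjusted p = 6.52e-07) and −1.79 ± 0.33 with P4 (−1.70, −1.82, −2.01, −2.13 and −1.28; limma adjusted p = 3.49e-06). ABCG1 averaged −0.50 and −0.59, without a call, after normexp correction and loess, and the methods' test on both channels did not call it with P4. ABCA5, a lysosomal lipid transporter, rose 3.00-fold with HIPP (1.59 ± 0.22, limma adjusted p = 4.68e-07) and 1.99-fold with P4 (0.99 ± 0.49, limma adjusted p = 0.000147), on 5 of 5 arrays each and with both probes. ABCA5 averaged 1.08 and 0.81 after normexp correction and loess, and 1.52 and 0.93 on background-subtracted signals centred on the median, without a call in either. The P4 call also ended with slide as a block (1.05), with the methods' test and without P4 replicate 1 (0.82). In shCtBP2 cells ABCA5 was at 0.42 ± 0.14 (limma adjusted p = 0.0652).

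Both genes called in shCtBP2 cells are ABCA members. ABCA2, which handles sphingolipids and sterols in endolysosomes, fell to 61.7% of control (−0.70 ± 0.43, limma adjusted p = 0.0202), and all 15 arrays were below 0. It read −0.95 ± 0.43 with HIPP (limma adjusted p = 0.000556) and −0.67 ± 0.41 with P4 (limma adjusted p = 0.0116). Those values were uncalled only because they stayed under the fold thresholds of the inhibitors, and both were called at 1.5-fold. The shCtBP2 call of ABCA2 ended with normexp correction and loess (−0.23), with the methods' test and without shCtBP2 replicate 1 (−0.54), 2 (−0.71) or 4 (−0.68). ABCA4, the retinoid transporter of photoreceptors, was called at −0.94 ± 0.54 in shCtBP2 cells (limma adjusted p = 0.0303) and −1.01 ± 0.77 with P4 (limma adjusted p = 0.0102). Its treated channel was well above background on 0 of those 10 arrays, so that only a bound holds. After normexp correction, loess and quantile normalization of the mean intensities, with dim signals raised to the lowest signal well above background on the array, as for the bound given for ABCA1, it was at least 1.08-fold lower in shCtBP2 cells and at least 1.11-fold lower with P4. The offset of 50 in both channels draws such bounds toward 1, so they do not show that a change was small. Both calls ended when slide was a block (−1.22 and −0.87). Leaving out shCtBP2 replicate 1, 2 or 3 ended the first (−0.77, −0.97 and −0.83), and leaving out P4 replicate 3 the second (−0.79). With normexp correction and loess no gene of the other 40 passed both thresholds in any treatment. Under that procedure 5, 15 and 17 of the tested genes had an unadjusted p under 0.05 in shCtBP2, HIPP and P4 cells.

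**Figure D5:**
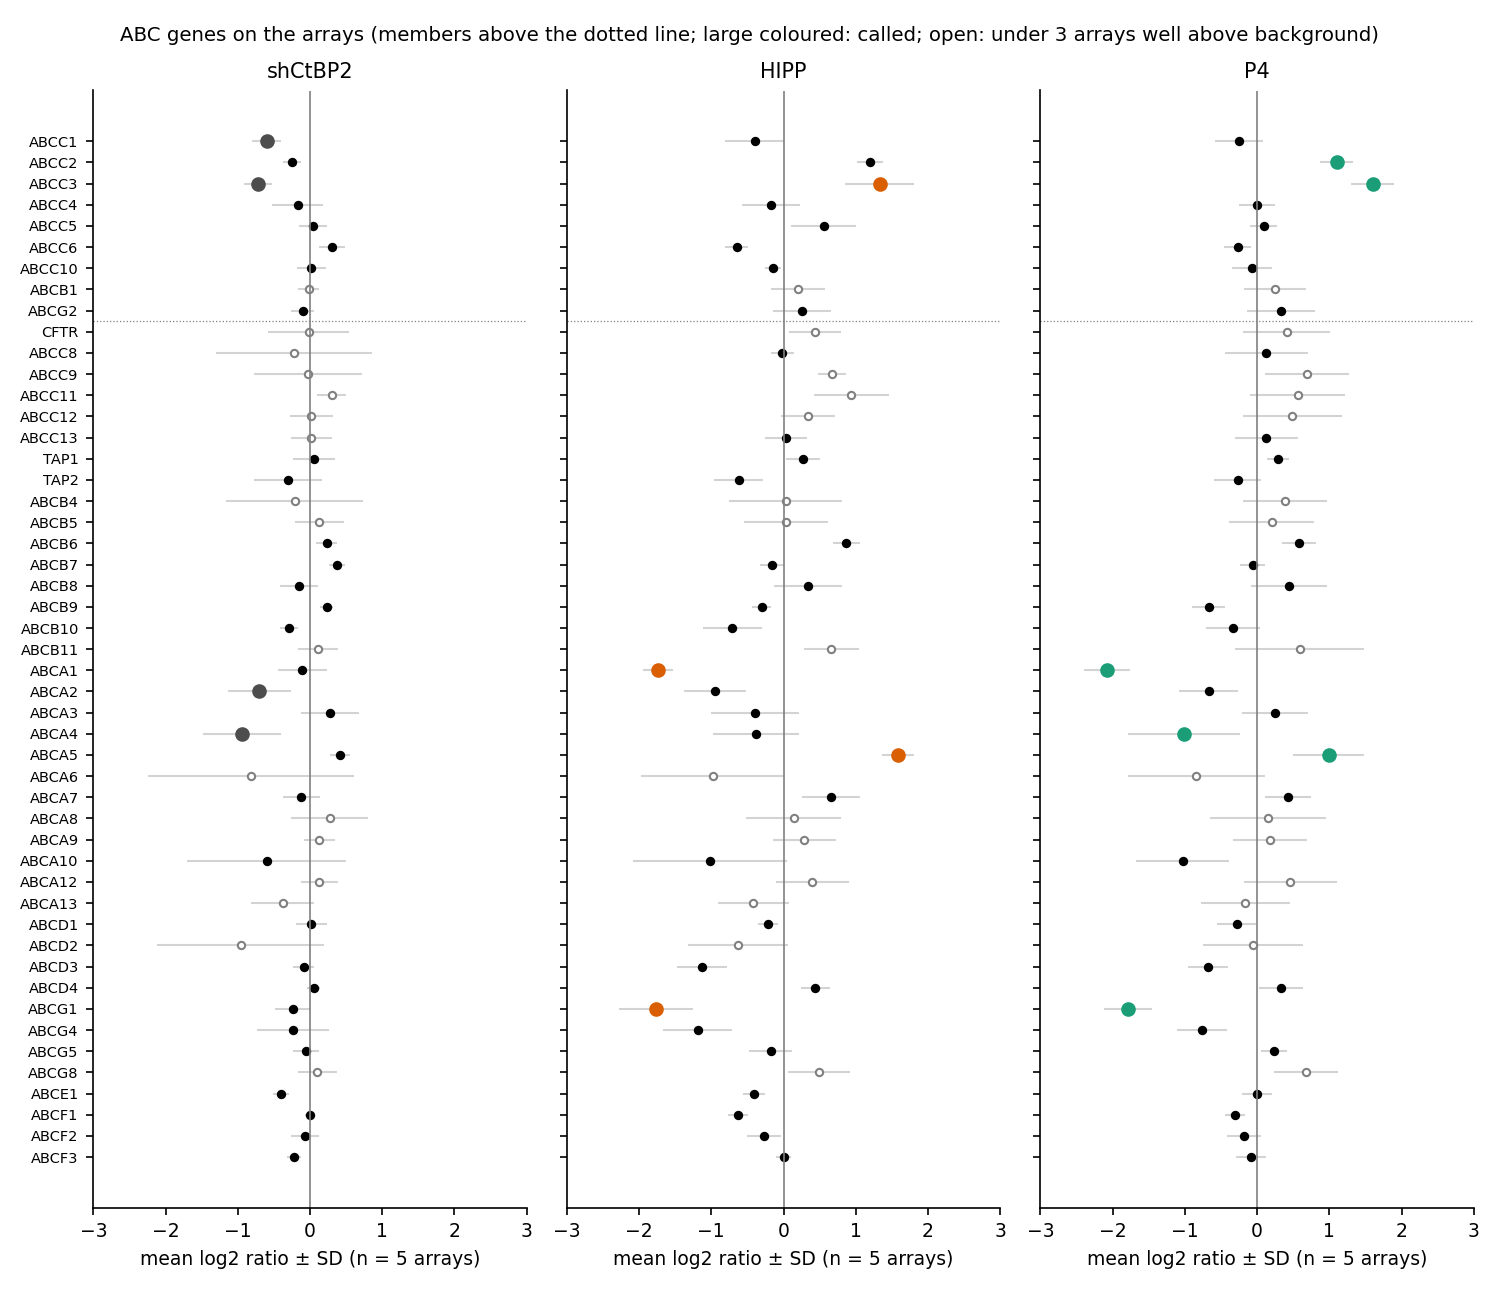
Mean log2 ratio ± SD (n = 5 arrays) of the 49 ABC genes in shCtBP2, HIPP and P4 cells, with the 9 efflux transporters above the dotted line. Large coloured circles are called genes and open circles are genes well above background on fewer than 3 of the 5 arrays in both channels. ABCA1 and ABCG1 lie between −2.08 and −1.74 and ABCA5, ABCC2 and ABCC3 at or above 0.99 with both inhibitors.

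Next came the enzymes that make the conjugates ABCC pumps carry. Of 34 glutathione, glucuronide and sulfate conjugation genes on the arrays, 1 of 26 tested was called in shCtBP2 cells, 0 of 30 with HIPP and 0 of 28 with P4, against 6.57, 7.05 and 8.46% of all genes. The methods' test also called 0 with either inhibitor, and without adjustment limma gave p under 0.05 for 15 and 12 genes, against 56.7 and 44.8% of all genes. Other limma fits called a few: UGT2B17 lower with HIPP and GSTP1 higher with P4 on background-subtracted signals, SULT1C2 higher with HIPP with slide as a block or without HIPP replicate 4, GSTK1 lower without P4 replicate 2 or 3, and GSTO2 higher without P4 replicate 4. On mean signals without correction GSTA4 was lower with HIPP and GSTP1 higher with P4. In shCtBP2 cells GSTM4 was lower by the brightest probe, SULT1E1 lower with slide or replicate number as a block, and MGST3 higher without replicate 1. At 1.5-fold for all treatments, HIPP called GSTM1, GSTM3, GSTA4 and GSTK1 lower and UGT8, SULT1C2, GCLM and MGST3 higher. There P4 called GSTK1 lower and GSTA1, MGST1, GCLC and GSTO2 higher, beside 8976 (HIPP) and 4831 (P4) of all genes. In the fit described the gene called in shCtBP2 cells was GSTO2, an omega-class glutathione transferase (1.42 ± 0.33, limma adjusted p = 4.06e-05, 5 of 5 arrays). GSTO2 averaged 0.53 and was not called after normexp correction and loess. By adjusted p alone, 7 conjugation genes were higher and 6 lower with HIPP, and 8 higher and 3 lower with P4. The median ratio of the tested genes was 0.12, 0.17 and 0.16 in shCtBP2, HIPP and P4 cells, against 0.04, 0.08 and 0.11 over all genes.

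Uptake carriers bring organic anions, cations, peptides and nucleosides into the cell, and those called were SLCO1B1, SLCO1B3, SLCO2A1 and SLCO4A1, all lower. They were 2 of 22 tested in shCtBP2 cells, 3 of 23 with HIPP and 2 of 20 with P4, or 9.09, 13.0 and 10%, against 6.57, 7.05 and 8.46% of all genes (medians 0.01, 0.08 and 0.09, against 0.04, 0.08 and 0.11). SLCO4A1, a carrier of thyroid hormone and bile acids, fell to 17.1% of control with HIPP (−2.87, −2.70, −2.96, −1.43 and −2.77; limma adjusted p = 4.84e-08) and to 52.5% with P4 (−0.93 ± 0.29, limma adjusted p = 0.00123), but averaged 0.32 ± 0.15 in shCtBP2 cells (limma adjusted p = 0.255). The P4 call ended with slide as a block (−0.66) and with the methods' test. SLCO1B3, a liver carrier of bile acids and statins, fell in shCtBP2 cells (−1.08 ± 0.21, 47.3% of control, limma adjusted p = 0.000104) and was below 0 on all 15 arrays. With HIPP it averaged −1.17 ± 0.30 and with P4 −0.77 ± 0.33, under the fold thresholds of those treatments. Other settings called further carriers: SLCO4C1 higher with P4 (dim probes left out, brightest probe, or without P4 replicate 1), SLC22A8 higher in shCtBP2 cells (slide as a block) and SLC22A4 lower there (without replicate 1 or 2). SLCO1B3 was called lower with HIPP on background-subtracted signals and on mean signals without correction. At 1.5-fold for all treatments, SLCO1B3 was called lower and SLC22A5 higher with both inhibitors. There P4 also called SLCO1B1 lower and SLCO4C1 higher, beside 8976 (HIPP) and 4831 (P4) of all genes.

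SLCO1B1, the related liver carrier, was called lower in shCtBP2 cells (−0.99 ± 0.62, limma adjusted p = 0.0179) and with HIPP (−2.10 ± 0.59, limma adjusted p = 8.47e-06). SLCO2A1, a prostaglandin carrier, was called lower with HIPP (−1.44 ± 0.70, limma adjusted p = 0.000157) and P4 (−0.92 ± 0.49, limma adjusted p = 0.00902). Both are dim. The treated channel of SLCO1B1 was well above background on 1 of 5 HIPP arrays, and that of SLCO2A1 on 2 of 5 HIPP arrays and 1 of 5 P4 arrays, where its control channel was above background on 3, so that the sizes of these 3 ratios rest mostly on treated signals not above background. After normexp correction and loess SLCO1B1 averaged −0.25 in shCtBP2 cells and −0.34 with HIPP, and SLCO2A1 −0.21 with HIPP and −0.15 with P4, without a call. The SLCO1B1 call in shCtBP2 cells and the SLCO2A1 call with P4 also ended with slide as a block and with the methods' test. SLCO1B1 lost its shCtBP2 call without replicate 1, 3 or 5 (−0.92, −0.78 and −0.99), and SLCO2A1 its HIPP call without HIPP replicate 5 (−1.14) and its P4 call without P4 replicate 2 (−0.76). After normexp correction and loess, SLCO4A1 (−2.12 with HIPP and −0.95 with P4) and SLCO1B3 in shCtBP2 cells (−0.94) were still called.

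Among 29 regulators known to act on efflux genes, 1 of 25 tested was called in shCtBP2 cells, 3 of 24 with HIPP and 3 of 23 with P4, or 4.0, 12.5 and 13.0%, against 6.57, 7.05 and 8.46% of all genes (medians −0.11, 0.33 and 0.29, against 0.04, 0.08 and 0.11). Without adjustment, limma gave p under 0.05 for 10 of 25 in shCtBP2 cells, 19 of 24 with HIPP and 18 of 23 with P4. Over all genes the shares were 28.6, 56.7 and 44.8%. By adjusted p alone, 13 regulators were higher and 6 lower with HIPP, and 9 higher and 4 lower with P4. The list was chosen with earlier results known, so nothing is read from these counts. ATF4, the transcription factor of the integrated stress response, rose 3.03-fold with HIPP (1.60 ± 0.17, limma adjusted p = 4.88e-08) and 2.84-fold with P4 (1.51 ± 0.25, limma adjusted p = 5.8e-07). Its probes A_23_P120941 and A_23_P120933 differed, at 1.09 and 2.11 with HIPP and 1.06 and 1.95 with P4. In shCtBP2 cells ATF4 was at 0.40 ± 0.26 (limma adjusted p = 0.0275), above 0 on 5 of 5 arrays and under the fold threshold, and was called there by its brightest probe. PPARG, a lipid-sensing nuclear receptor, fell to 21.6% of control with HIPP (−2.21 ± 0.29, limma adjusted p = 1.55e-09) and to 41.2% with P4 (−1.28 ± 0.14, limma adjusted p = 7.42e-07), and stood at 66.7% in shCtBP2 cells (−0.58 ± 0.04, limma adjusted p = 0.00129). In shCtBP2 cells PPARG was called lower on background-subtracted signals and without replicate 1, 2 or 4. Further regulators were called in other fits, NFE2L2 and KLF4 lower and MAFG higher with P4 when slide was a block, KLF4 lower without P4 replicate 2, and YBX1 lower for shCtBP2 under the slide block. By the brightest probe RXRA and YBX1 were lower in shCtBP2 cells and MAFK higher with HIPP, and on mean signals without correction NFE2L2 and AHR were lower with HIPP. At 1.5-fold for all treatments, HIPP also called BACH1, MAFK, MAFG, FOXO3 and EPAS1 higher and NFE2L2, PPARA and AHR lower. There P4 also called MAFG higher and KLF4 lower, beside 8976 (HIPP) and 4831 (P4) of all genes.

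EPAS1, the hypoxia-inducible factor HIF-2 alpha, was called lower in shCtBP2 cells (mean of 2 probes −1.61 ± 0.32, limma adjusted p = 5.69e-06). With HIPP it averaged 0.80 ± 0.39 (limma adjusted p = 0.00029), under the fold threshold. With P4 it averaged 0.44 ± 0.20 and was left out by the filter on low variability. EPAS1 was above 0 on all 10 inhibitor arrays. Of its 2 probes, A_23_P210210 averaged −1.34 in shCtBP2 cells, and A_23_P430120, with a treated channel above background on 0 of those arrays, was at least 1.17-fold lower, so that the size of the mean is not exact. EPAS1 averaged −0.69 and was still called after normexp correction and loess. The opposite directions of EPAS1 in shCtBP2 and inhibitor-treated cells were not tested against each other.

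Genes whose ratios followed those of ABCC3 were sought among 12535 genes with a current symbol that had a value and at least 1 channel well above background on all 15 arrays. ASNS, asparagine synthetase, was closest (Pearson r = 0.977), followed by KRT81, a hair keratin (0.971), SLC7A5, a carrier of large neutral amino acids (0.971), ANGPTL4, an inhibitor of lipoprotein lipase (0.969), and CLASP1, a microtubule-stabilizing protein (0.969). ABCC2 ranked 47 with r = 0.929. The most negative were DHTKD1 (−0.969), TCEAL3 (−0.952), UBB (−0.951), GMDS (−0.950) and TCEAL5 (−0.946). These values describe 15 arrays in 3 separate groups that share a type of control, so that any gene separating shCtBP2 from inhibitor arrays scores high.

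The sizes behind such correlations differed. For shCtBP2, HIPP and P4, ANGPTL4 averaged 0.10, 2.66 and 2.53, ASNS 0.33, 1.51 and 1.69, and CLASP1 −0.45, 0.19 and 0.39. KRT81 averaged −0.16, 1.60 and 2.13 and SLC7A5 −0.04, 1.26 and 1.47, and none of the 5 was as low in shCtBP2 cells as ABCC3 at −0.72. DHTKD1, an enzyme of mitochondrial lysine breakdown, averaged 0.38, −0.92 and −0.93.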

How the data were processed

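Agilent whole human genome arrays were scanned by the authors and corrected for background and dye with Feature Extraction (version 9.5), and the deposited files hold signal intensities per spot in both channels, written with decimal commas. The deposited value table holds log10 ratios that equal those of the scanner files within 0.005 and served as an alternative. The authors' annotation is on hg17, and gene names were updated through RefSeq, giving 65.3% of probes a current symbol. The log2 ratio of Cy5 to Cy3 was computed per spot from the processed signals, 78 to 265 spots per array marked non-uniform or outlying were left out, and spots and then probes of a gene were averaged. Genes needed values on 3 of 5 arrays, and the 11% with the lowest interquartile range over the 10 channel signals of a treatment were removed, after the methods. Ratios were tested against 0 with limma (version 3.58.1, R 4.3.3), all 15 arrays in 1 fit, with Benjamini-Hochberg adjustment over all genes tested. Called genes had an adjusted p under 0.05 and the study's fold change of 1.5 (shCtBP2), 2.5 (HIPP) or 1.8 (P4). With these fold changes and Student's t-test the paper reported fewer genes for shCtBP2 and P4, and almost only lower ones with HIPP. Here 48.7% of the HIPP calls were higher, and the reason for the difference was not tested.

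The members and all gene lists were chosen with earlier results of these data known, and no p is given for a member. Named besides the 9 members and CTBP2 are other ABC genes called in a treatment with 1 direction on all its arrays, the 5 called conjugation, uptake and regulator genes with the largest mean ratio in each list, and the 5 genes with the highest and the 5 with the most negative Pearson r with ABCC3. UGT1A1 was listed but has no probe with that name. A regulator and a probe sequence that this rule would give are not reported here. The biological replicates were separate samples by their labels, and a ratio against 0 leaves out the spread between control cultures if 1 control extract was shared. Alternatives changed background correction, dye normalization, filters, probe choice, blocks, tests and arrays left out, and mean signals without correction were added after the data were seen. The normexp correction added an offset of 50 to both channels, which draws ratios of dim genes toward 0 in every result given after it.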

Additional observations from a re-analysis of the deposited data

Results flagged for a closer look

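Among 27 combinations of a member and a treatment, 3 had an array that stood apart from the other 4 (gap over range above 0.71 with 5 arrays, which chance gives in about 1 of 20 groups). ABCC1 with HIPP read 0.32 in replicate 4 against −0.69 to −0.52 in the others. ABCC2 in shCtBP2 cells read −0.04 in replicate 1 against −0.33 to −0.28. ABCC4 in shCtBP2 cells read −0.78 in replicate 2 against −0.09 to 0.09.

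3 members had every shCtBP2 array on 1 side of 0 and every array of both inhibitors on the other, a difference that was not tested (2.25% of all genes measured on every array did so). The mean log2 ratio in shCtBP2 cells minus that with HIPP and with P4 was −2.05 and −2.32 for ABCC3 and −1.45 and −1.35 for ABCC2. For ABCC6 it was 0.94 and 0.56, where the 5′ probe carried the difference.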

How the results depend on the processing

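Over 30 alternatives, 15 of which left out 1 array, the log2 ratios of the 9 members were recomputed 537 times. No called member changed direction, 13 values lost their call, 4 gained one, and 21 uncalled values moved by over 1 SD. The causes were not tested unless stated.

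With normexp correction and loess, 0 members were called for shCtBP2, 0 for HIPP and 1 for P4 (ABCC3), 0 other ABC genes in any treatment, 2 conjugation, uptake and regulator genes in shCtBP2 cells and 3 with HIPP, and 269, 279 and 584 of all genes in shCtBP2, HIPP and P4 cells. On mean signals without correction, which moved the median ratio of all genes from 0.04, 0.08 and 0.11 to −0.21, −0.42 and −0.26, 0 members were called for shCtBP2, 0 for HIPP and 1 for P4, 0 other ABC genes in shCtBP2 cells and 1 with P4, 2 genes of the other lists in shCtBP2 cells, and 263 of all genes in shCtBP2 cells and 583 with P4. Higher calls were 30.4, 2.54 and 35.2% of all calls there, against 50.9, 48.7 and 50.8%. On background-subtracted signals centred on the median, 0 members were called with HIPP (ABCC3 at 1.28, under the fold threshold), and higher calls were 39.4% with P4. With slide as a block, 1 member was called in shCtBP2 cells (ABCC1), ABCC3 standing at −0.87, beside 2177 of all genes against 1813 without the block. Taking the brightest probe called 2 members with HIPP (ABCC3 and ABCC6, the latter at −1.45) and 8 list genes in shCtBP2 cells, and raised ABCC6 to 0.82 and a call in shCtBP2 cells, beside 2229 of all genes with HIPP and 1952 in shCtBP2 cells, against 1944 and 1813. A fold threshold of 1.5 for all treatments, a wider criterion by construction, called 3 members with HIPP (ABCC2 higher and ABCC6 lower besides ABCC3), 15 other ABC genes with HIPP and 10 with P4, 24 and 16 list genes, and 8976 and 4831 of all genes. The methods' test on both channels called 0 other ABC genes in shCtBP2 cells and 1 with P4 (ABCA1), 2 list genes with P4, and 969 and 891 of all genes in shCtBP2 and P4 cells. Its one-sample form called 0 other ABC genes in shCtBP2 cells and 2 with P4, 3 list genes with P4, and 1037 of all genes with P4. Where no other ABC gene was called in shCtBP2 cells, 5 to 21 had an unadjusted p under 0.05.

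Leaving out 1 array gave 1 to 2 members called in shCtBP2 cells, beside 1300 to 1643 of all genes, 0 to 1 with HIPP, beside 1731 to 2232, 0 to 2 other ABC genes in shCtBP2 cells (0 without replicate 1 or 2 and 1 without replicate 4), and 5 to 8 list genes with P4, where leaving out replicate 1 added SLCO1B1 and SLCO1B3 as lower and SLCO4C1 as higher. Of 15 pairs of arrays with the same replicate number, 13 correlated above 0.1 in their deviations from the treatment means (lowest r = −0.0276, median 0.169), against 19 of 60 pairs with different numbers (median −0.087). For 7 of the 15 arrays the highest mean r was with their own number. The labels tie the numbers to no shared culture or day and not every pair passed 0.1, so the numbers were not taken as pairs, and a factor shared by number was not tested. With the replicate number as a block, 2 members were called for shCtBP2, 1 for HIPP and 2 for P4, beside 2222, 1943 and 2429 of all genes. Signal over background limits, among others, ABCB1, 1 probe of ABCC4, 2 of ABCA1 and 1 of EPAS1, and the treated signals of ABCA4, SLCO1B1 and SLCO2A1.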
